A study of Mus musculus with 6 samples.

Results

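ZBTB genes encode transcription factors that carry a BTB domain and C2H2 zinc fingers. They were followed in Tregs of WT and Zfp335-deficient (KO) mice by taking each gene of the deposited table whose symbol starts with Zbtb and a number. The rule took 42 of the 32285 rows. Of these, 2 are named for a neighbour on the opposite strand and are not ZBTB proteins. Zbtb8os encodes a tRNA ligase cofactor and had no C2H2 finger in its coding sequence, and Zbtb11os1 is annotated as antisense RNA. Of the remaining 40 ZBTB genes, 38 passed the expression filter of edgeR. Zbtb7c and Zbtb8b did not, being at most 0.0623 CPM (read counts relative to the scaled library size, as edgeR's cpm function gives them) and 0.132 CPM in any library. Every one of the 40 coding sequences held at least 1 match to a C2H2 finger pattern, from 1 in Zbtb22, Zbtb43, Zbtb5 and Zbtb9 to 14 in Zbtb17 and Zbtb41, with a median of 4. The known T cell factors Zbtb7a, Zbtb7b, Zbtb17, Zbtb20 and Zbtb32, together with Zbtb10, were set beside the others.

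Bulk RNA-Seq was performed on CD4+CD25+ cells sorted from the spleens of C57BL/6 mice, with 3 libraries from WT and 3 from KO animals. KO mice were ERCre Zfp335 fl/fl, in which Cre fused to a modified estrogen receptor deletes Zfp335 once tamoxifen is given. The sample labels name the controls wild-type littermates, whereas the methods of the study describe them as ERCre mice that received tamoxifen as well. Mice were 6 weeks old, received 3 injections and were sacrificed on day 7. ERCre is not restricted to Tregs, so other cells of the KO mice lose Zfp335 too, and the sort used surface CD25 without a Foxp3 reporter. Labels do not state whether the libraries of a group came from separate mice, so p values measure the spread between libraries.

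In ZBTB proteins the BTB domain, near the N-terminus, forms dimers and recruits corepressors such as NCoR, SMRT and BCOR or the ubiquitin ligase scaffold Cul3, while the zinc fingers bind DNA. Several members direct lymphocyte fate. Zbtb7b (ThPOK) holds CD4+ T cells in their lineage, Zbtb7a (LRF) shares part of that task, and Zbtb17 (Miz-1) works with Myc and in IL-7 signaling.

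Library totals were between 133283969 and 209041812 counts, with TMM scaling factors from 0.987 to 1.014. Zfp335 itself was 124.4, 120.7 and 115.2 CPM in WT and 14.96, 14.27 and 15.12 CPM in KO, a log2 fold change of -3.02 (SE 0.0461, edgeR adjusted p = 1.2e-13), in the direction of the labels. Foxp3, the defining Treg factor, was between 1120 and 1154 CPM in WT and between 1046 and 1062 CPM in KO. Cd4 was between 680.4 and 710.4 CPM in all libraries. Groups also differed in Xist, an RNA of the inactive X chromosome, with means of 0.272 CPM in WT and 134.6 CPM in KO, so that a difference in the sex of the mice and the genotype cannot be told apart. Zbtb33 is the only X-linked member. Leaving out all genes of chromosomes X and Y left the 19 calls among ZBTB genes as they were. All 19 belong to autosomal genes, so this omission cannot show whether sex changed them. Summed markers of several other cell types also differed between the groups, and the reported ones are given with the members or at the end.

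RefSeq promoters (GRCm38.p6, 250 bases before to 50 after a start) were found for 35 of the 40 ZBTB genes, with 48 start sites. Zbtb10, Zbtb16, Zbtb40, Zbtb48 and Zbtb7c had no entry. The 4 printed here belong to genes on which the comparison turned: Zbtb21, which rose most among those with an entry, Zbtb7b, the most abundant member, and Zbtb32 and Zbtb8a, which fell by more than 1.5-fold. Capitals mark the GC box GGGCGG or the CCAAT box on either strand, and all 4 genes lie on the minus strand.
Zbtb21 at chr16:97962573-97962872: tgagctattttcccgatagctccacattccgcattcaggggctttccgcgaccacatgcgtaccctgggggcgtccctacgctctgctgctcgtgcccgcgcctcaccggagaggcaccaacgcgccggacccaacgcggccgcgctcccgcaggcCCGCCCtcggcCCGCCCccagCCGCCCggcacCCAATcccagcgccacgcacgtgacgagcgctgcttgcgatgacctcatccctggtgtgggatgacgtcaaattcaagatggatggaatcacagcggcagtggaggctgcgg
Zbtb7b at chr3:89393329-89393628: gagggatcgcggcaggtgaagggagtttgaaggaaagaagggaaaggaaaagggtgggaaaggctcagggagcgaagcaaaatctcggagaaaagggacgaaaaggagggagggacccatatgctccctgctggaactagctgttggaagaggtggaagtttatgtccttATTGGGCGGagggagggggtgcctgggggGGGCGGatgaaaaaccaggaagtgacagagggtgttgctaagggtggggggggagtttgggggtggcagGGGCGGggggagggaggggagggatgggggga
Zbtb32 at chr7:30598860-30599159: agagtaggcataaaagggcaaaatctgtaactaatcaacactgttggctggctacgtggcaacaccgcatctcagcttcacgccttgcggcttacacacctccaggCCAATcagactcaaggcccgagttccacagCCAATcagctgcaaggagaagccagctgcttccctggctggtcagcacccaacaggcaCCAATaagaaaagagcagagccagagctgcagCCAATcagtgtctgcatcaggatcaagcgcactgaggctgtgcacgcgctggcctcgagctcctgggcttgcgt
Zbtb8a at chr4:129377979-129378278: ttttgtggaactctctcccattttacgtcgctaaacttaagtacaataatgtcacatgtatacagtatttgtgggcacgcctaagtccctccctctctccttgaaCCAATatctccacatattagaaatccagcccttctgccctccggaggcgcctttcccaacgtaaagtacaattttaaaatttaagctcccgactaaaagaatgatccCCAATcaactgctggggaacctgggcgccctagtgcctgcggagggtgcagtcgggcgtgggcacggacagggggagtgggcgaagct
The Zbtb21 promoter holds 33 CG dinucleotides and 3 GC boxes, whereas that of Zbtb7b holds 8 CG dinucleotides and 3 GC boxes. Neither of the other 2 has a GC box, but Zbtb32 has 4 CCAAT boxes and Zbtb8a has 2. Zbtb3, which also fell by more than 1.5-fold and is not printed, has 1 GC box at each listed start, with 4 or 3 CCAAT boxes. A second, downstream start of Zbtb7b has 7 CG dinucleotides and 1 GC box, and a second start of Zbtb32 has 3 CG dinucleotides and none of the motifs. Across the family, GGGCGG was found in 32 of 48 promoters (66.7%), against 35.7% of all 32851 mouse promoters in the table. CCAAT was found in 15 of 48 (31.2%, against 37.4%) and CCGGAAG, an ETS-type motif that none of the printed promoters holds, in 12 of 48 (25%, against 8.86%). The median number of CG dinucleotides was 25 per ZBTB promoter and 7 per promoter overall. These matches describe the letters in the window and do not show binding.

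Among the 38 tested genes taken by symbol, changes were frequent and mostly small, and decreases outnumbered increases. Of the 8 BTB zinc finger genes with other symbols, described further below, 4 were called higher and 0 lower. At an adjusted p under 0.05 in edgeR's quasi-likelihood test, 5 ZBTB genes were higher in KO (13.2% of 38, against a background of 12% of all 17307 genes tested). Another 14 were lower (36.8%, against a background of 12.1%). Together 19 of 38 were called (50%, against 24.1% of all genes). With a change of at least 1.5-fold, an unadjusted p under 0.05 and an adjusted p under 0.1, 2 members were higher (Zbtb10 and Zbtb21; background 2.58%) and 3 were lower (Zbtb8a, Zbtb3 and Zbtb32; background 4.37%). The CPM values of WT and KO did not overlap for 24 of the 38 members (63.2%, against 38.3% of all genes). These backgrounds cover tested genes of every level, whereas 31 of the 38 members were at or above 10 CPM in WT. Shares over genes of similar level were not computed, so the part of expression level in these differences was not tested. The median log2 fold change was -0.0945 over the tested members and -0.0042 over all genes. Of the 19 calls, 11 held under each of 17 alternative settings (4 higher, 7 lower), and 8 were lost under at least 1 of them, as named beside each gene below. Without WT replicate 2, only 12 members were called.

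**Figure D1:**
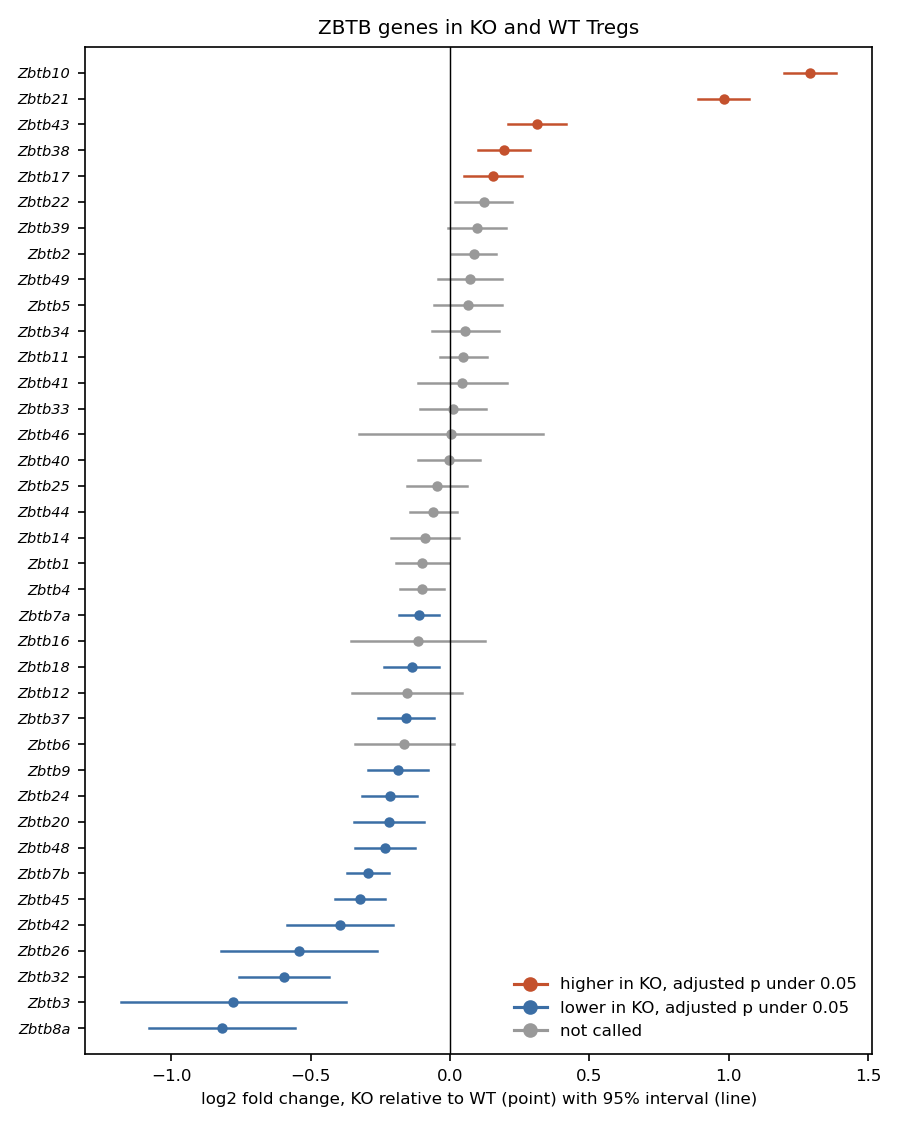
Log2 fold change of the 38 tested ZBTB genes, KO relative to WT (x axis), 1 gene per line, with the point at the edgeR estimate and the line at its 95% interval. Zbtb10 (1.29) and Zbtb21 (0.98) stand apart on the right, while the 14 genes called lower run from -0.11 to -0.82.

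Of the 5 T cell factors, Zbtb7b, Zbtb7a, Zbtb20 and Zbtb32 were lower in KO (80%, against 12.1% of all genes). Zbtb17 was higher (20%, against 12%). Only the calls of Zbtb7b and Zbtb32 held under every alternative. Zbtb7b, which represses the CD8 program and Runx3, was the most abundant member. It was 283.6, 273 and 286.8 CPM in WT replicates 1 to 3 and 236.6, 227.5 and 223.6 CPM in KO replicates 1 to 3. All 3 KO libraries were below the lowest WT library, and the mean fell by 18.5% (log2 fold change -0.29, SE 0.0347, edgeR adjusted p = 4.05e-05). The gene spans chr3:89377644-89394776 on the minus strand, and none of its exons overlaps another gene. In bulk samples, fewer cells of a type and less RNA per cell cannot be told apart, and this holds for each member described here.

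Zbtb7a, on chromosome 10 from 81135220 to 81152995, supports the CD4+ lineage alongside Zbtb7b. It was 139.8, 135.9 and 142.2 CPM in WT and 128.1, 128.6 and 129.8 CPM in KO. Groups were apart but close, with a log2 fold change of -0.11 (SE 0.0329, edgeR adjusted p = 0.0248). The call was lost in 4 of the 6 fits that left out 1 library (without WT replicate 3 or any of the KO replicates), with an adjusted p between 0.0546 and 0.105. Zbtb7b and Zbtb7a together summed to 420.4 ± 10.4 CPM in WT against 358 ± 5.94 CPM in KO (mean ± SD of 3 libraries).

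Zbtb17 is the Myc partner Miz-1, on chromosome 4 from 141444654 to 141467930. Its values were 81.3, 71.2 and 72 CPM in WT and 84.5, 83.3 and 82.2 CPM in KO, with WT replicate 1 just below the lowest KO library. The log2 fold change was 0.15 (SE 0.0482, edgeR adjusted p = 0.0334). This call was lost in 5 of the 6 fits that left out 1 library (all but WT replicate 1), with an adjusted p of 0.0754 to 0.172, and under 2 other scalings (adjusted p = 0.0639 and 0.0774).

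Zbtb20 marks a subset of Tregs and acts in B cells and plasma cells. Its RNA was 33.2, 36.8 and 31.8 CPM in WT and 27.7, 30.1 and 29.8 CPM in KO (log2 fold change -0.22, SE 0.0582, edgeR adjusted p = 0.0145). Groups did not overlap, but the call was lost without WT replicate 2 (adjusted p = 0.0983) or KO replicate 1 (0.0818). It has the longest locus among the T cell factors, on chromosome 16 from 42875881 to 43642602.

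Zbtb32, a repressor of cytokine genes and of Ciita that is induced in activated lymphocytes, fell most among the 5. It was 16.6, 16.4 and 14.3 CPM in WT and 10.9, 9.62 and 11.0 CPM in KO. All KO libraries were well below WT, and the mean fell by 33.9% (log2 fold change -0.60, SE 0.0745, edgeR adjusted p = 6.58e-05), and the call held in every fit. Zbtb32 and Zbtb20 are also expressed in B lineage cells, and summed RNA of 6 B cell markers was 46.8 to 51.4 CPM in WT and 21.5 to 23.6 CPM in KO. All 6 B cell markers were lower, including Cd79a, a chain of the B cell receptor, with a log2 fold change of -1.39. None was at 0 in any library, and their part in the result for Zbtb32 and Zbtb20 was not tested.

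**Figure D2:**
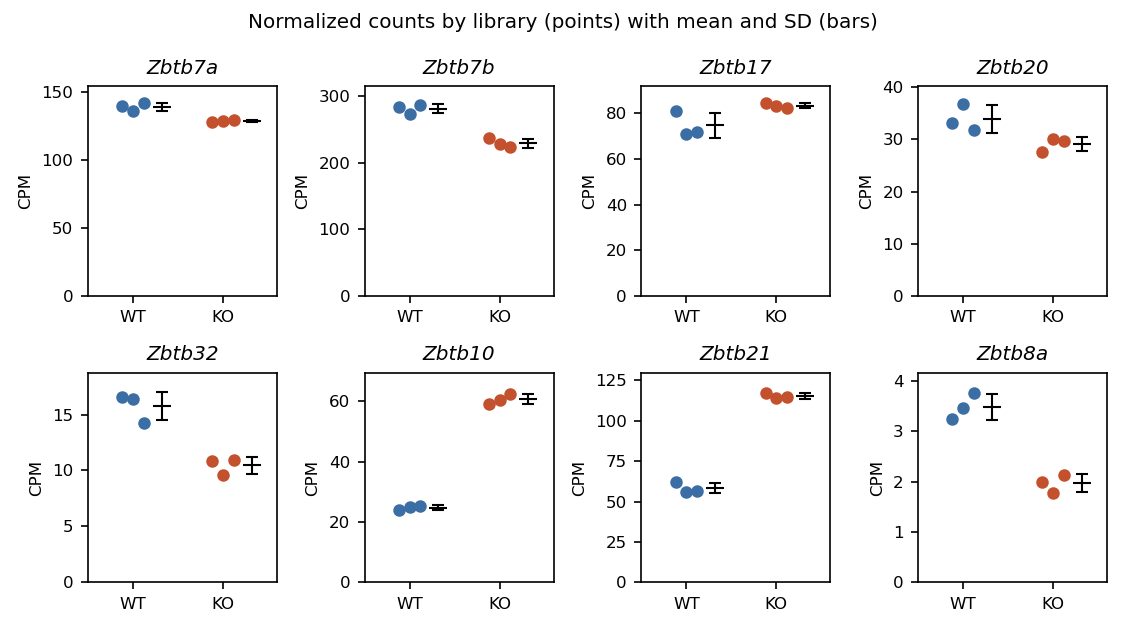
CPM of the 5 T cell factors and of Zbtb10, Zbtb21 and Zbtb8a in each library (points; WT left, KO right), with the mean and SD of 3 libraries beside them, each panel on its own linear axis from 0. Groups do not overlap in any of the 8 panels, and the gap is widest relative to the spread for Zbtb10, from 24.8 to 60.7 CPM.

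Genes listed as targets of the T cell factors, of Zbtb10 and of Zbtb24 were read together, 27 in all, of which 26 were tested. Across all of them, 5 were higher (19.2%, against 12% of all genes) and 3 were lower (11.5%, against 12.1%) in KO. For Zbtb7b, 0 of 6 were called (Cd4, Cd8a, Cd8b1, Runx3, Socs1 and Cd40lg), with log2 fold changes between -0.0889 and 0.032. Unadjusted, the lowest p of these 6 was 0.115. Runx3, the factor of the CD8 lineage, was 104.5, 105 and 101.8 CPM in WT and 100.2, 100.8 and 98.4 CPM in KO, and Cd8a was at most 0.594 CPM in any library.

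Cdkn1a, the cell cycle inhibitor p21 that Zbtb17 activates and that Myc represses through Zbtb17, rose most among the targets. It was 8.39, 7.84 and 7.56 CPM in WT and 25.0, 26.0 and 25.8 CPM in KO (log2 fold change 1.69, SE 0.0589, edgeR adjusted p = 5.24e-10). Bcl2, a survival factor downstream of IL-7, had a log2 fold change of 0.16 (adjusted p = 0.00199), and the other 3 listed for Zbtb17 were not called. Myc itself was lower, from 158 ± 7.59 CPM in WT to 139 ± 1.31 CPM (mean ± SD of 3 libraries; log2 fold change -0.18, adjusted p = 0.00333). Of the 5 genes listed for Zbtb7a, Cdkn2a, which Zbtb7a represses, was lower (log2 fold change -1.004, adjusted p = 0.00618) at a level of at most 1.69 CPM, and Pkm, a glycolytic enzyme, was at the threshold (0.17, adjusted p = 0.0498). The call for Pkm was lost under 10 of 17 alternatives (adjusted p 0.0525 to 0.146), among them 5 of the 6 fits without 1 library (all but WT replicate 1).

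Both genes listed for Zbtb20 were higher in KO. Il10, the suppressive cytokine, was 18.9, 20.4 and 20.3 CPM in WT and 37.3, 36.7 and 39.1 CPM in KO (log2 fold change 0.93, SE 0.0502, edgeR adjusted p = 3e-08). Nfkbia, the NF-kB inhibitor that Zbtb20 represses, had a log2 fold change of 0.41 (adjusted p = 2.74e-05). For Zbtb32, Ciita, the master regulator of MHC class II genes, was 6.42, 6.10 and 6.16 CPM in WT and 2.18, 2.30 and 2.91 CPM in KO (log2 fold change -1.34, adjusted p = 1.46e-06). Ciita is abundant in B cells and dendritic cells, whose marker sums were also lower, and their part in this result was not tested. Il4 and Il13 were not called (adjusted p = 0.19 and 0.367) and Il5 did not pass the filter. Cdca7 and Hells, which act with Zbtb24 in DNA methylation, were not called (log2 fold changes 0.0269 and -0.048).

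Zbtb10 rose more than any other member and was the 257th highest log2 fold change of the 17307 genes. This zinc finger protein binds variant telomere repeats and represses Sp family genes. Its gene, on chromosome 3 from 9250602 to 9285333 on the plus strand, has 2 matches to the finger pattern. Its RNA was 24.0, 25.1 and 25.3 CPM in WT and 59.1, 60.6 and 62.5 CPM in KO. The 3 KO libraries were close to each other and 2.45-fold above WT (log2 fold change 1.29, SE 0.0437, 95% interval 1.197 to 1.386, edgeR adjusted p = 4.62e-10). Leaving out any library kept the log2 fold change between 1.27 and 1.31. Of the Sp genes that Zbtb10 represses, Sp4 was lower (WT 53.5 ± 2.46 CPM, KO 47.2 ± 1.53 CPM, mean ± SD of 3 libraries; log2 fold change -0.18, adjusted p = 0.0111), a call lost without KO replicate 1 (adjusted p = 0.0686). Sp1 (0.0338, adjusted p = 0.509) and Sp3 (-0.0997, adjusted p = 0.123) were not called, but Sp3 was called lower without WT replicate 1 (adjusted p = 0.00334) and with scaling by library size alone (0.0454).

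Zbtb21 followed, at 62.2, 56.3 and 56.7 CPM in WT and 117.2, 114.4 and 114.6 CPM in KO. It has been described as a repressor, and its gene, with 6 matches to the finger pattern and the CG-rich promoter shown above, lies on chromosome 16 from 97943357 to 97962622. KO libraries were all above WT by a wide margin (1.98-fold, log2 fold change 0.98, SE 0.0425, edgeR adjusted p = 3.2e-09). It was the 439th highest log2 fold change of all genes, and remained between 0.95 and 1.03 across all alternatives. The next, Zbtb43, rose 1.24-fold.

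Zbtb43, on chromosome 2 from 33450287 to 33468559, was 29.6, 29.7 and 27.4 CPM in WT and 36.4, 36.9 and 34.6 CPM in KO (log2 fold change 0.31, SE 0.0483, edgeR adjusted p = 0.00039). Its neighbour Zbtb34, on the same chromosome from 33406108 to 33431324, was not called (log2 fold change 0.0545, 95% interval -0.0652 to 0.174). Among the 3 members that bind methylated CpG, Zbtb38 was higher, at 59.8, 65.0 and 62.4 CPM in WT and 69.2, 70.9 and 73.9 CPM in KO (log2 fold change 0.19, SE 0.0425, adjusted p = 0.00492). The others, Zbtb4 and Zbtb33 (Kaiso), were not called, although Zbtb4 passed the threshold under 6 of the 17 alternatives. Of 3 telomere-binding members, Zbtb10 was higher and Zbtb48 (TZAP), which limits telomere length, was lower. Zbtb48 was 31.4, 29.5 and 29.3 CPM in WT and 26.2, 26.1 and 24.5 CPM in KO (log2 fold change -0.23, SE 0.0498, adjusted p = 0.00392). Zbtb40 was level, with a log2 fold change of -0.00408 (95% interval -0.115 to 0.107, adjusted p = 0.966).

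The 2 largest decreases were in weakly expressed members. Zbtb8a was 3.25, 3.45 and 3.76 CPM in WT and 1.99, 1.78 and 2.14 CPM in KO. Groups did not overlap, and the mean fell by 43.3% (log2 fold change -0.82, SE 0.121, edgeR adjusted p = 0.000284). Its row was the 1012th lowest log2 fold change of all genes. Zbtb8a lies on chromosome 4 between Zbtb8os and Zbtb8b. Zbtb8os was 17.8 to 18.7 CPM in WT and 18.2 to 19.5 CPM in KO, with no call (adjusted p = 0.804), and Zbtb8b did not pass the filter. Zbtb3 was 1.31, 1.44 and 1.10 CPM in WT and 0.83, 0.738 and 0.722 CPM in KO (log2 fold change -0.78, SE 0.187, adjusted p = 0.00862). Its call was lost without WT replicate 2 (adjusted p = 0.0552).

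Zbtb26 was 3.33, 4.25 and 3.52 CPM in WT and 2.64, 2.26 and 2.80 CPM in KO (log2 fold change -0.54, SE 0.13, edgeR adjusted p = 0.00843). The call was lost without WT replicate 2 (adjusted p = 0.0645) or KO replicate 2 (0.0521), and 8.26% of its exon bases are shared with Zbtb6 on the same strand, so that reads there cannot be assigned to one of them. Zbtb6 was not called (log2 fold change -0.16, adjusted p = 0.174). Zbtb42 was 8.27, 6.93 and 7.87 CPM in WT and 5.93, 6.07 and 5.48 CPM in KO (log2 fold change -0.40, SE 0.0877, adjusted p = 0.0052). Zbtb45 was 38.7, 37.5 and 37.7 CPM in WT and 30.4, 30.7 and 29.9 CPM in KO (log2 fold change -0.32, SE 0.0418, adjusted p = 8.88e-05). Libraries of Zbtb45 varied little within a group, and both calls held in every fit.

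Of 6 further members listed for roles in blood cells, 2 were lower (33.3%, against 12.1% of all genes), of which Zbtb18 did not hold throughout, and 0 were higher (against 12%). Zbtb24, which is mutated in an inherited immunodeficiency with centromere instability, was 34.9, 36.1 and 34.2 CPM in WT and 30.8, 30.7 and 29.2 CPM in KO (log2 fold change -0.22, SE 0.0451, edgeR adjusted p = 0.00345). Zbtb18, a repressor best known from brain development, was 45.6, 46.9 and 49.7 CPM in WT and 43.6, 41.3 and 44.3 CPM in KO (log2 fold change -0.14, SE 0.0458, adjusted p = 0.0443). The call for Zbtb18 was lost in 5 of the 6 fits without 1 library (all but WT replicate 1; adjusted p 0.0682 to 0.21), with limma-voom (0.0541) and with no filter on low counts (0.0506). Zbtb1, needed for lymphocyte development, Zbtb25, a repressor of NFAT, Zbtb16 (PLZF), the factor of innate-like T cells, and Zbtb46, a marker of classical dendritic cells, were not called.

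Zbtb16 was low, at 4.14, 3.60 and 3.35 CPM in WT and 3.72, 3.32 and 3.28 CPM in KO. Zbtb46 was 1.79, 1.596 and 1.35 CPM in WT and 1.604, 1.52 and 1.69 CPM in KO, a log2 fold change of 0.0047 with a wide 95% interval of -0.325 to 0.335. Summed RNA of 4 dendritic cell markers was 4.06 to 5.16 CPM in WT and 2.14 to 2.42 CPM in KO.

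The remaining calls were small decreases. Zbtb9 was 23.6, 25.2 and 23.2 CPM in WT and 21.1, 20.9 and 21.4 CPM in KO (log2 fold change -0.19, SE 0.0503, edgeR adjusted p = 0.0158), but 98.2% of its exon bases are overlapped by Ggnbp1 or an unnamed gene, which makes its count uncertain. Zbtb37 was 48.9, 51.9 and 46.5 CPM in WT and 43.4, 43.6 and 45.2 CPM in KO (log2 fold change -0.16, SE 0.0461, adjusted p = 0.0238), with 15.6% of its exon bases overlapped by Serpinc1 on the other strand. Both calls were lost without WT replicate 2, KO replicate 1 or KO replicate 2 (adjusted p of Zbtb9 from 0.0581 to 0.0981 and of Zbtb37 from 0.0983 to 0.144).

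The 19 tested members that were not called had log2 fold changes from -0.16 to 0.12. The 3 with the highest CPM were Zbtb4, Zbtb1 and Zbtb11. Zbtb4 was 105.6, 100.9 and 98.5 CPM in WT and 94.8, 95.1 and 94.5 CPM in KO (log2 fold change -0.10, 95% interval -0.18 to -0.0231, edgeR adjusted p = 0.0594). Its groups did not overlap even so. Zbtb1 was 77.7, 84.5 and 83.9 CPM in WT and 75.1, 74.2 and 80.3 CPM in KO (log2 fold change -0.0996, adjusted p = 0.129). Zbtb11 was 62.0, 61.6 and 64.7 CPM in WT and 65.9, 62.6 and 66.0 CPM in KO (log2 fold change 0.048, adjusted p = 0.434), and its antisense partner Zbtb11os1 was not called either (0.14, adjusted p = 0.393). Zbtb33, the X-linked member, was 25.5, 29.1 and 26.5 CPM in WT and 27.7, 26.7 and 27.5 CPM in KO (adjusted p = 0.916).

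Genes called lower had WT means from 1.29 to 281.1 CPM. Of the 7 members below 10 CPM in WT, 4 were lower and 0 higher (12.1% and 12% of all genes), with a median log2 fold change of -0.395. Of the 31 at or above 10 CPM, 10 were lower and 5 higher, with a median of -0.0467. The shares over all genes cover every level, and neither shares nor medians were computed for all genes below or above 10 CPM. The spread between libraries was small throughout, with a median coefficient of variation of 4.51% in WT and 3.17% in KO, and it was the lower of the 2 in KO for 29 of the 38 members. The same share over all genes was not computed. Over all tested genes, WT libraries correlated with each other at 0.980 to 0.989 and KO libraries at 0.987 to 0.988. Pairs of a WT and a KO library correlated at 0.977 to 0.980. WT replicates 1 and 3 (0.97995) were thus no closer than WT replicate 3 and KO replicate 2 (0.98027).

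**Figure D3:**
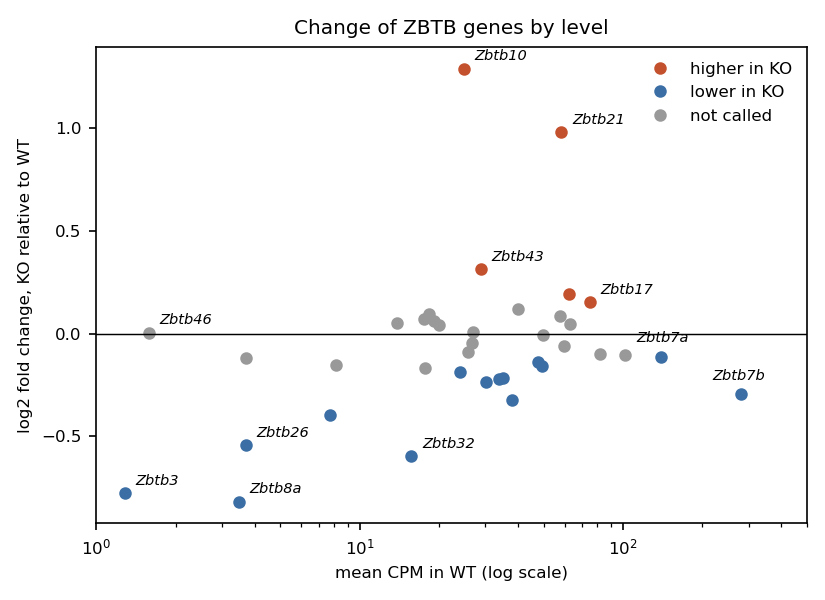
Log2 fold change, KO relative to WT (y axis), against mean CPM in WT (x axis, log scale) for the 38 tested ZBTB genes, 1 point per gene. The 2 large increases, Zbtb10 and Zbtb21, sit at 24.8 and 58.4 CPM in WT, and no gene called higher lies below 24.8 CPM.

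The sum over the 40 ZBTB genes differed between groups by less than its spread, with 1612 ± 3.21 CPM in WT against 1615 ± 10.7 CPM (mean ± SD of 3 libraries each). Gains of the 5 genes called higher added up to 117.4 CPM, and the 14 called lower fell by 106.7 CPM. Most of the gain came from Zbtb21 and Zbtb10, and the largest single part of the loss from Zbtb7b. Levels of different genes were compared as CPM per kilobase of annotated exon. On this scale Zbtb7b was highest in both groups (58.9 ± 1.51 in WT, 48.0 ± 1.40 in KO), followed by Zbtb17 (27.5 ± 2.06 and 30.6 ± 0.417) and Zbtb7a (21.9 ± 0.50 and 20.3 ± 0.138). Zbtb21 went from 9.71 ± 0.552 to 19.2 ± 0.26 CPM per kilobase, which placed it next after Zbtb7a in KO. Zbtb10 went from 3.35 ± 0.096 to 8.19 ± 0.233 and Zbtb32 from 8.44 ± 0.677 to 5.62 ± 0.40 CPM per kilobase (SD, n = 3 libraries each). These levels use all annotated exons and do not account for which isoform the cells use.

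Of 8 BTB zinc finger genes that carry other symbols, 4 were higher (50%, against 12% of all genes) and 0 were lower (against 12.1%) in edgeR's test (the lowest unadjusted p of a decrease was 0.111). Bcl6, the defining repressor of follicular helper and follicular regulatory T cells, was 31, 29.8 and 30.8 CPM in WT and 37.2, 38.8 and 39.7 CPM in KO (log2 fold change 0.34, SE 0.0447, edgeR adjusted p = 0.000108). Hic1 rose by a log2 fold change of 0.51 (adjusted p = 3.64e-05), Hic2 by 0.45 (adjusted p = 0.00168) and Mynn by 0.22 (adjusted p = 0.00472). Whether these differ as a group from the ZBTB genes was not tested.

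Partners of BTB zinc finger proteins changed little in size. Of 20 corepressors and partners, 7 were higher (35%, against 12% of all genes) and 3 were lower (15%, against 12.1%), with log2 fold changes between -0.21 and 0.30. Of these 10 calls, those of Hdac4, Hdac7 and Myc held under every alternative and the other 7 were lost under at least 1. The class IIa histone deacetylases Hdac4 (0.30, edgeR adjusted p = 0.000207) and Hdac7 (0.20, adjusted p = 0.00256) rose most among the genes called, with Hdac7 going from 530.6 ± 29.2 to 611.6 ± 17.5 CPM (mean ± SD of 3 libraries). Bcorl1, a relative of the corepressor Bcor, was lower (-0.21, adjusted p = 0.0143), and Bcor was higher (0.13, adjusted p = 0.0163). The call for Bcorl1 was lost without KO replicate 1 (adjusted p = 0.076) or KO replicate 3 (0.0571), and that for Bcor in 4 of 16 alternatives (0.0548 to 0.0888), among them without WT replicate 2, KO replicate 1 or KO replicate 2. The main partners in NCoR complexes, Ncor1 (0.0204, adjusted p = 0.72) and Hdac3 (0.0845, adjusted p = 0.151), were not called.

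Markers of other cells in the sort were mostly lower in KO. Summed over 5 neutrophil markers, RNA was 16.7 to 22.1 CPM in WT and 0.857 to 1.17 CPM in KO. For 4 red cell markers it was 28.8 to 34.0 CPM in WT and 1.40 to 1.69 CPM in KO. The sum of 4 myeloid markers was 33.7 to 37.9 CPM in WT and 20.2 to 22.1 CPM in KO, and that of 4 plasma cell markers was 48.2 to 54.0 CPM and 42.2 to 43.6 CPM. Of the myeloid markers 3 were called lower, but Csf1r was higher in KO without a call (means 8.80 and 10.3 CPM). Prdm1 made up most of the plasma cell sum and was level (means 36.45 and 36.12 CPM), whereas Jchain fell from 11.4 to 4.21 CPM. Mzb1 was also called lower, and Sdc1 was not called. CD8 and NK cell marker sums overlapped between groups. Against these, the 6 Treg markers summed to 3353 to 3393 CPM in WT and 3434 to 3491 CPM in KO. Ctla4 alone rose by more than this sum, from a mean of 410.3 CPM in WT to 645.3 CPM in KO. On the log2 scale Foxp3 (-0.11) and Il2ra (-0.15) were lower and Ctla4 was higher (0.65). Cd3e and Ikzf2 were below WT in every KO library without a call, and Cd4 overlapped between groups. The call for Foxp3 was lost without any 1 of the KO libraries (adjusted p 0.0508 to 0.0922) and that for Il2ra without KO replicate 2 (0.0523). The part of these cells in the changes of Zbtb7b, Zbtb8a and the other lower members was not tested.

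**Figure D4:**
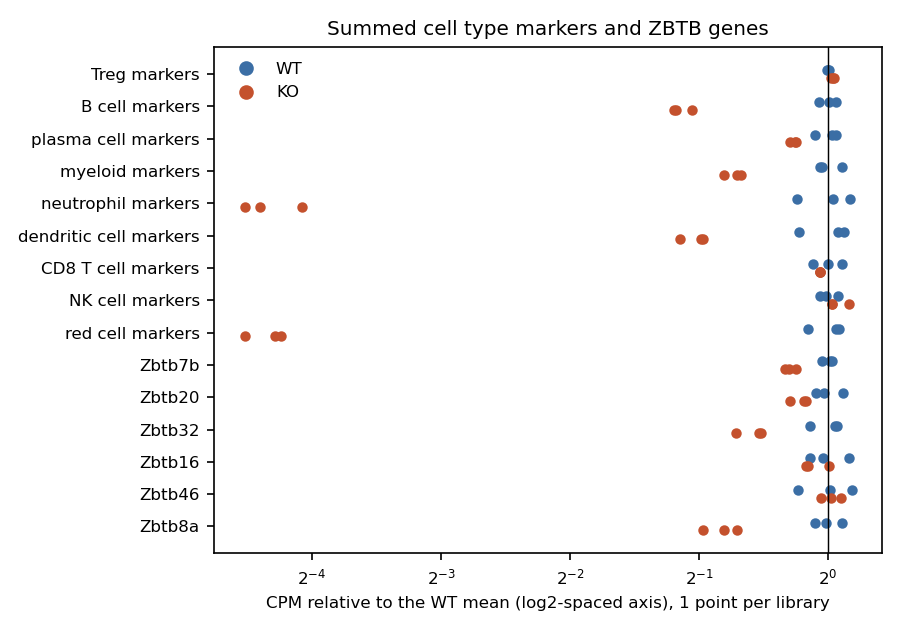
CPM relative to the WT mean (x axis, log2-spaced) of summed cell type markers and of 6 ZBTB genes (rows), 1 point per library in WT and KO. Neutrophil and red cell marker sums in KO sit far to the left of the B cell, myeloid and dendritic cell sums, while Zbtb16 and Zbtb46 overlap between groups.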

How the data were processed

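RNA was taken from CD4+CD25+ splenic Tregs of 3 WT and 3 KO samples and made into TruSeq libraries by the authors. They deposited raw counts per gene symbol, without scaling between libraries. Per the labels, the submitters' processing notes name HISAT2, DESeq2 and the build mm10 (GRCm38); their versions, the counting tool and its strand setting are not given in the sources used here. Counts of 1 (620 entries) were rarer than counts of 4 (2579), so a count is not a single fragment, and no counting intervals were derived. Of the 32285 rows, 40 repeat a symbol. No column was left out.

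Columns were matched to groups and replicate numbers by the labels. KO was tested against WT with edgeR 4.0.16 in R 4.3.3 (TMM factors, robust non-legacy quasi-likelihood fit, filterByExpr), and p values of the 17307 genes kept were adjusted by Benjamini-Hochberg. A gene counted as called if its adjusted p was under 0.05, with a second rule of 1.5-fold, p under 0.05 and adjusted p under 0.1. CPM used TMM-scaled library sizes, and SEs were derived from the F statistic. In simulated counts for this comparison (16967 genes), 31 of 32 genes of at least 1 CPM with a 2-fold change were recovered and 24 of 35 with a 1.25-fold change, with 9 false calls. With 3 against 3 libraries an exact permutation test of a single gene cannot go below p = 0.1, so none was used.

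The members and gene lists were chosen with earlier results of these data known. Named were Zfp335, the T cell factors, Zbtb10, each ZBTB gene called, the 3 uncalled ones of highest CPM, members that failed the filter, and up to 4 called genes of each other list. Beyond the rule, the text names genes without a call, overlapping neighbours, Xist and some markers, chosen after their values were seen. Coordinates, exon lengths and coding sequences come from GENCODE for GRCm38. Fingers were counted as C, 2 or 4 residues, C, 12 residues, H, 3 to 5 residues, H. Other scalings and filters, limma-voom (limma 3.58.1), DESeq2 1.42.0, the legacy edgeR method, a replicate block and the omission of each library in turn served as alternatives. Counts divided by 4 and leaving out X and Y genes were added after seeing the data. The result of 1 marker list is not reported here.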

Additional observations from a re-analysis of the deposited data

How the results depend on the processing

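With each library left out in turn, between 2740 and 4996 genes were called (4170 with all 6), between 12 and 21 ZBTB genes (19 with all 6), and between 8 and 16 of these were lower. The lowest value of each came without WT replicate 2. A filter of at least 1 CPM in 3 libraries reduced the genes passing the 1.5-fold rule from 1203 to 572, because fewer genes were tested. Scaling by library size alone gave 1622 higher and 2575 lower genes, against 2082 and 2088, and shifted the median log2 fold change of all genes to -0.0349. Among ZBTB genes it gave 4 higher and 15 lower. No ZBTB gene reversed its direction while called. Over the 17 alternatives, values of called members kept their side of the threshold in 294 of 323 cases and lost it in 29, and those of members without a call passed it in 9 of 322. Zfp335 stayed between -3.06 and -3.00 on the log2 scale. DESeq2 called 20 ZBTB genes and limma-voom 18.

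Replicate numbers were not taken as pairs, since deviations of libraries with the same number from their group means correlated at 0.0284, 0.00819 and 0.0326. A replicate block nevertheless called 4227 genes and the same 19 ZBTB genes, with 1163 genes at the 1.5-fold rule.

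The number of fragments behind a count is not known, so limits of detection for Zbtb7c, Zbtb8b and other weak members were not set.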
